A study of Ctenopharyngodon idella with 15 samples.

Results

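The gill RNA of 3‰-treated symptomatic fish was set against that of 3‰-treated asymptomatic fish, to describe the genes that go with visible damage at the same salinity. The comparison used 6 of the 15 fish of the series, chosen by their labelled salinity and health condition, with 3 fish on each side. All fish were three-month-old grass carp (Ctenopharyngodon idella), and gills were taken after 30 days. The symptomatic fish had been kept in 3‰ saline water and had an injured body. The asymptomatic fish had been kept in the same water and were recorded as healthy. The other fish were 6‰-treated symptomatic, 6‰-treated asymptomatic and untreated control fish, again 3 of each. The sample labels write the salinities as percent, and the per mille of the paper is used here. Health was recorded on the fish that were sampled, so symptoms were not assigned, and what led to them cannot be told apart from what followed them.

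The gill of a freshwater fish is the organ of gas exchange, of ion uptake through ionocytes, and of defence at a large surface that touches the water. It holds epithelium, blood vessels, red cells, resident lymphocytes and macrophages. A level in whole gill can differ because the share of a cell type differs or because the RNA per cell differs, and these cannot be told apart in bulk samples. NOD-like receptors (NLRs) are cytosolic receptors for microbial products and for signs of cell damage. In mammals NLRP3 assembles an inflammasome, which matures interleukin-1β, and NLRC3 and NLRP12 are known as dampers of inflammatory signalling. Fish genomes carry many NLR genes of closely similar sequence, so reads may be shared between copies.

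The deposited values are FPKM for 40116 genes in each fish. FPKM counts the fragments on a gene relative to its transcript length and to the size of the library. Genes with a mean of at least 0.5 FPKM over the 6 fish were tested, which left 24465 genes. All differences are on the scale of log2(FPKM + 1), symptomatic minus asymptomatic, and the added 1 makes the change of a low gene look smaller. Of the identifiers in the files, 32723 are genome loci (scaffold, start and end) and 7393 are newGene numbers, and 0 of them matched the gene table of the reference assembly. Names are therefore given only for 16 NLR loci that the paper's text pairs with an identifier, and the tissue could not be checked against markers of gill cell types. NLRs that the paper names by a newGene number of its infected fish were left out, since the number can stand for another gene there.

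A total of 1259 genes, or 5.15% of those tested, were past the DEG threshold used here, a change of 1.5-fold or more with an unadjusted p under 0.05. In symptomatic fish 575 genes were higher (2.35%) and 684 were lower (2.8%). The median change of the higher DEGs was 0.81 on the log2 scale, with 181 of them at 1 or more and 43 at 2 or more. The lower DEGs had a median change of 0.74 in size, with 115 at 1 or more and 11 at 2 or more. On this scale the larger differences thus lay more often on the side of the higher genes. The added 1 shrinks changes at low levels, and the sides differed in level. With a mean of 2 to 5 FPKM there were 108 higher and 213 lower DEGs, against 61 and 30 above 50 FPKM. The part of level in the larger differences was not tested. After Benjamini-Hochberg adjustment in limma 0 genes had a p below 0.05 (lowest adjusted p = 0.146), while 2960 genes had an unadjusted p below 0.05. The fish of both groups did not overlap in 455 of the 575 higher and in 538 of the 684 lower DEGs, against 8.01% and 11.2% of all tested genes in those directions. The DEGs were called on these same fish, so their higher share follows largely from the choice.

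**Figure D1:**
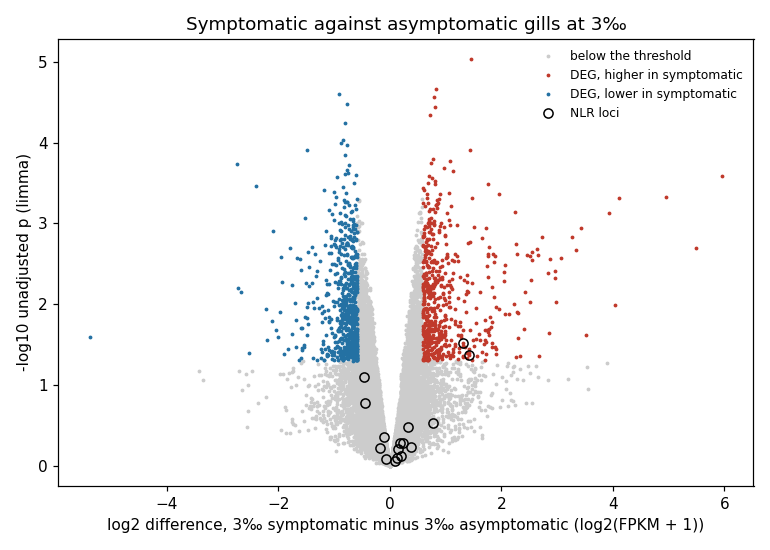
Each point is 1 of the 24465 tested genes, with the log2 difference (3‰ symptomatic minus 3‰ asymptomatic) on the x axis and -log10 of the unadjusted limma p on the y axis; red and blue points are the 575 higher and 684 lower DEGs, and open circles are the 16 NLR loci. The red points reach further from 0 than most blue points, and 2 NLR loci lie among the red ones.

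The balance of higher and lower genes depended on how the libraries were scaled. The median difference over all tested genes was -0.07, so a typical gene was slightly lower in symptomatic fish. With median-ratio scaling 769 genes were higher and 495 lower, which puts 60.8% of the DEGs on the higher side, against 45.7% with the deposited FPKM. The direction in which most DEGs lay is therefore not a result of these data.

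The 3 symptomatic fish were less alike than the 3 asymptomatic fish. The median difference between a pair of fish, over all tested genes, was 0.231 to 0.391 on the log2 scale within the symptomatic fish and 0.211 to 0.228 within the asymptomatic fish, while pairs from both groups differed by 0.239 to 0.393. Symptomatic fish 3 stood apart among the 6 fish. Its score on the first principal component was 74.9, against -25 and 3.9 in the other symptomatic fish and -27.9, -1.92 and -23.9 in the asymptomatic fish, and that component held 28.5% of the variance. In symptomatic fish 3 the 10 most abundant genes took 9.27% of the FPKM, against 6.2% and 6.52% in the other symptomatic fish. Its median difference was 0.241 from control fish 1 and 0.283 from control fish 2. Both were smaller than those from the other symptomatic fish (0.391 and 0.349), while control fish 3 was at 0.382. Without symptomatic fish 3 there were 774 higher and 776 lower genes. Without symptomatic fish 1 there were 805 higher and 1171 lower genes. Each DEG list shared part of its genes with the list from all fish, and 184 higher and 164 lower DEGs were called whichever of the 6 fish was left out.

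Among the genes without a name, the 2 higher and 2 lower DEGs of lowest p were taken from those without overlap between the 3‰ groups. The lack of overlap at 3‰ at these loci was thus set by the choice. The one of lowest p was higher in symptomatic fish. It is the locus CI01000027_03922380_03931033, on scaffold CI01000027 from 3922380 to 3931033. It had 4.10, 6.04 and 6.13 FPKM in symptomatic fish, against 0.85, 1.90 and 1.30 FPKM in asymptomatic fish. All symptomatic fish were above all asymptomatic fish. The log2 difference was 1.46 (SE 0.21, limma adjusted p = 0.146). The control fish had 1.85, 1.48 and 2.83 FPKM, which is between the 3‰ groups or inside the asymptomatic range.

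The next higher DEG, CI01000054_08378811_08396034, was more abundant. It had 44.8, 41.3 and 36.3 FPKM in symptomatic fish, against 22.5, 20.8 and 24.2 FPKM in asymptomatic fish. The groups did not overlap, and the log2 difference was 0.83 (SE 0.13, limma adjusted p = 0.146). The control fish, at 29.6, 24.3 and 28.8 FPKM, lay between both groups.

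On the lower side the DEG of lowest p was CI01000016_05208242_05218239. It had 48.2, 49.0 and 44.4 FPKM in symptomatic fish, against 76.9, 110.1 and 85.2 FPKM in asymptomatic fish. Every symptomatic fish was below every asymptomatic fish, with a log2 difference of -0.91 (SE 0.14, limma adjusted p = 0.146). The control fish had 59.3, 61.7 and 66.1 FPKM, again between both groups. The next one, CI01000205_00772741_00782908, had 17.4, 19.8 and 20.5 FPKM in symptomatic fish, against 30.5, 37.2 and 32.6 FPKM in asymptomatic fish. These did not overlap either, and the log2 difference was -0.76 (SE 0.12, limma adjusted p = 0.146).

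The same loci were then read in the 6‰-treated fish, which are other animals. CI01000016_05208242_05218239 had 54.1, 50.5 and 50.3 FPKM in 6‰ symptomatic fish, against 96.6, 81.5 and 94.6 FPKM in 6‰ asymptomatic fish, a log2 difference of -0.80 (SE 0.14, limma adjusted p = 0.157). It was past the DEG threshold at both salinities. CI01000205_00772741_00782908 was at -0.45 (SE 0.12), below the fold threshold, with no overlap between the 6‰ groups. CI01000054_08378811_08396034 had 37.5, 34.9 and 33.7 FPKM in 6‰ symptomatic fish, against 30.3, 30.3 and 28.6 FPKM in 6‰ asymptomatic fish. These did not overlap, and the log2 difference of 0.24 (SE 0.13, limma adjusted p = 0.49) was not past the threshold. CI01000027_03922380_03931033 had 3.94, 4.08 and 4.80 FPKM in 6‰ symptomatic fish, against 4.78, 4.07 and 4.04 FPKM in 6‰ asymptomatic fish. Its levels overlapped there, and both 6‰ groups lay near the 3‰ symptomatic fish.

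**Figure D2:**
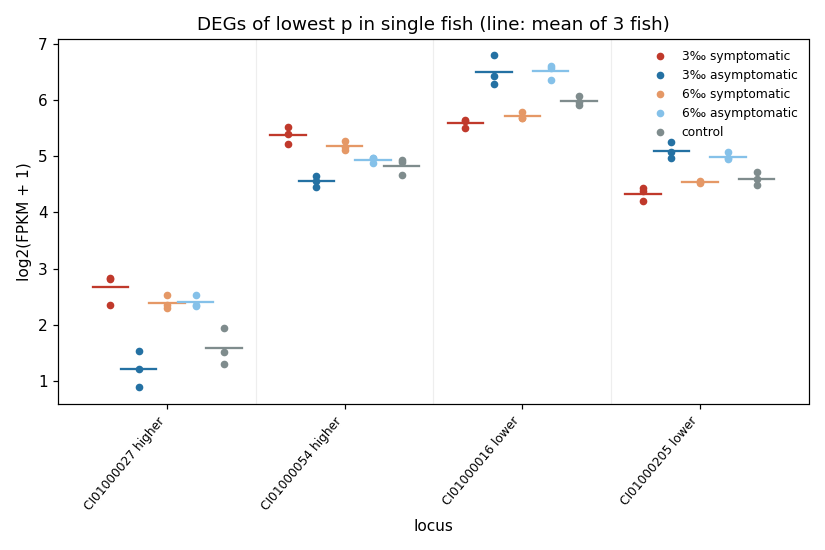
Points are single fish and lines the means of 3 fish, as log2(FPKM + 1), for the 2 higher and the 2 lower DEGs of lowest p, in the 3‰ and 6‰ groups and the control. At 3‰ the symptomatic fish are separate from the asymptomatic fish at all 4 loci, which was a rule of their choice. At 6‰ they are separate at all but CI01000027.

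Values are given for each of the 16 named NLR loci, whatever its p. All 16 passed the filter on low FPKM. Of these, 2 were past the DEG threshold (5.15% of all tested genes were), both higher in symptomatic fish, and 0 were lower. The median difference over the 16 loci was 0.17, against -0.07 over all tested genes, and 11 of the 16 were above 0. The paper chose 5 of the 16 on these same libraries, as genes raised by salinity. Its comparisons with the control included these symptomatic fish but not these asymptomatic fish. Higher levels in symptomatic fish at these 5 loci can thus be partly fixed by the choice. These 5 loci had a median difference of 0.37, with 4 above 0, and held the 2 DEGs. The other 11 had a median of 0.14, with 7 above 0, and 0 were past the threshold. The fish of both groups did not overlap at 2 of the 16 loci, against 19.2% of all tested genes in either direction. After adjustment over all genes 0 of the 16 had a p below 0.05.

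Both NLR loci past the threshold are NLRC3-like genes with a complete open reading frame. CI01000365_00436141_00445601 had 10.3, 10.5 and 9.60 FPKM in symptomatic fish, against 7.85, 4.13 and 0.959 FPKM in asymptomatic fish. The symptomatic fish were close to each other and all above the asymptomatic fish, which were spread widely. The log2 difference was 1.32 (SE 0.54, limma adjusted p = 0.365). The control fish had 0.687, 0.771 and 1.59 FPKM, so asymptomatic fish 3 was at the control level. Without asymptomatic fish 3 the difference was 0.72 and no longer past the threshold. The call was also lost without any 1 of the symptomatic fish. Their levels were so close that the size of the difference hardly depended on any 1 of them.

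CI01000095_03598784_03614858 had 2.87, 1.75 and 6.48 FPKM in symptomatic fish, against 0.24, 1.99 and 0.114 FPKM in asymptomatic fish. Asymptomatic fish 2 was above symptomatic fish 2, so the groups overlapped. The log2 difference was 1.42 (SE 0.63, limma adjusted p = 0.397). The control fish were between 0.071 and 0.184 FPKM. Without symptomatic fish 3, the highest one, the difference was 1.03 and no longer past the threshold, and the call was kept only without symptomatic fish 2 or without asymptomatic fish 2.

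The other NLRC3-like loci of this kind were not past the threshold. CI01000057_04728914_04731946 had 17.5, 12.5 and 14.3 FPKM in symptomatic fish, against 16.8, 18.0 and 4.21 FPKM in asymptomatic fish. CI01000437_00000063_00010815 had 11.9, 12.2 and 5.64 FPKM in symptomatic fish, against 21.7, 11.4 and 1.65 FPKM in asymptomatic fish. At both loci asymptomatic fish 3 was the lowest of the 6 fish and another asymptomatic fish was the highest. newGene_5350, which is matched to its name by its number alone, had 0.563, 1.00 and 2.62 FPKM in symptomatic fish, against 1.70, 2.11 and 0.936 FPKM in asymptomatic fish. Over the 16 NLR loci asymptomatic fish 3 was the lowest of the asymptomatic fish at 13 and the lowest of all 6 fish at 8. Without it 0 of the 16 loci were past the threshold, as was also the case without symptomatic fish 1 and without symptomatic fish 3.

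**Figure D3:**
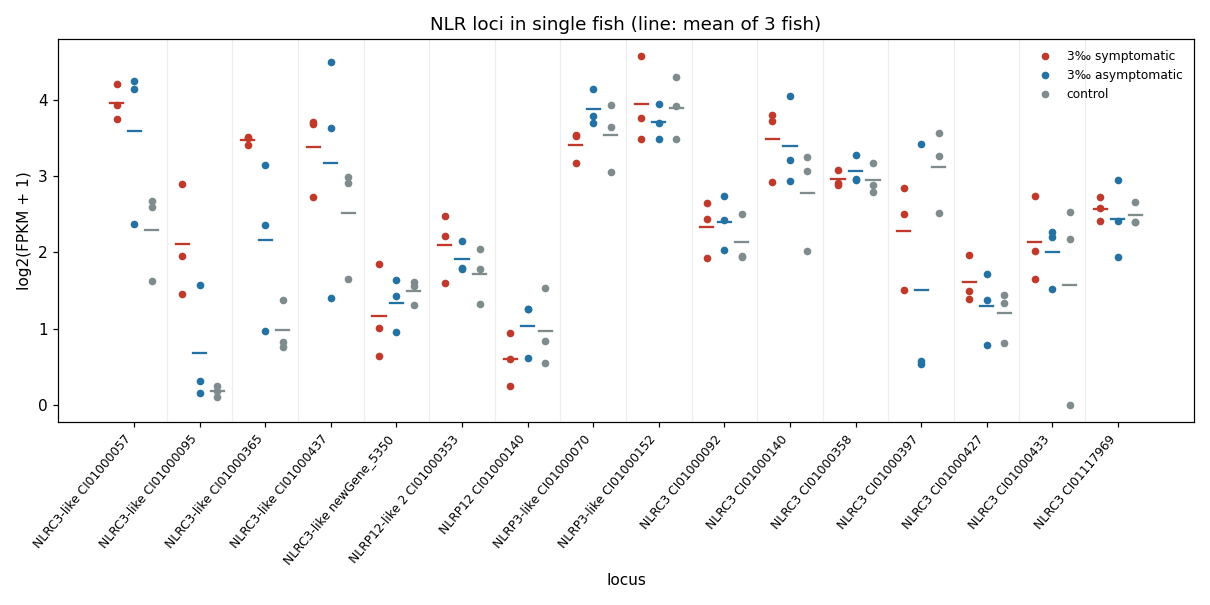
Points are single fish and lines the means of 3 fish, as log2(FPKM + 1), for the 16 NLR loci in 3‰ symptomatic, 3‰ asymptomatic and control fish. At the NLRC3-like locus on CI01000365 the symptomatic fish lie close together above spread asymptomatic fish, and at most other loci the groups overlap.

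NLRP3-like and NLRP12 loci did not pass the threshold. The NLRP3-like locus CI01000070_04844701_04867804 had 10.5, 8.02 and 10.6 FPKM in symptomatic fish, against 12.1, 16.7 and 12.8 FPKM in asymptomatic fish. It was the other NLR locus at which the fish did not overlap, here with the symptomatic fish below, but the difference was -0.47 (SE 0.25, limma adjusted p = 0.474). The NLRP3-like locus CI01000152_01231478_01232527 had 10.2, 12.6 and 22.9 FPKM in symptomatic fish, against 12.1, 14.5 and 10.2 FPKM in asymptomatic fish. Its highest value was that of symptomatic fish 3, and the groups overlapped. NLRP12 (CI01000140_02047275_02055290) averaged 0.541 ± 0.367 FPKM in symptomatic fish and 1.10 ± 0.498 FPKM in asymptomatic fish (SD, n = 3 each). NLRP12-like 2 (CI01000353_00909159_00930428) averaged 3.42 ± 1.28 FPKM in symptomatic fish and 2.79 ± 0.581 FPKM in asymptomatic fish (SD, n = 3 each). These last 2 loci overlapped between the groups.

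The remaining 7 loci, all named NLRC3, were not past the threshold, with differences between -0.11 and 0.77. The steadiest was CI01000358_00550693_00557903, with 6.53, 6.39 and 7.45 FPKM in symptomatic fish, against 6.77, 6.78 and 8.75 FPKM in asymptomatic fish. CI01000092_03702024_03712418 had 4.41, 5.30 and 2.81 FPKM in symptomatic fish, against 4.40, 5.67 and 3.10 FPKM in asymptomatic fish. CI01000140_02095891_02110510 had 13.0, 12.3 and 6.61 FPKM in symptomatic fish, against 8.27, 15.7 and 6.65 FPKM in asymptomatic fish. At each of these loci the groups overlapped, and their differences were between -0.11 and 0.08. CI01000427_00019738_00058058 had 1.62, 1.83 and 2.91 FPKM in symptomatic fish, against 1.59, 2.27 and 0.73 FPKM in asymptomatic fish, a difference of 0.33 (SE 0.33, limma adjusted p = 0.719). CI01000433_00039954_00060508 had 2.14, 3.05 and 5.70 FPKM in symptomatic fish, against 3.62, 1.88 and 3.84 FPKM in asymptomatic fish. CI01117969_00000011_00000940 had 4.98, 4.34 and 5.65 FPKM in symptomatic fish, against 4.32, 6.72 and 2.84 FPKM in asymptomatic fish. These groups overlapped as well, and at CI01000427 and CI01117969 asymptomatic fish 3 was the lowest of the 6 fish. CI01000397_00142266_00144610 varied most between fish, with 4.68, 1.84 and 6.17 FPKM in symptomatic fish, against 0.485, 9.77 and 0.451 FPKM in asymptomatic fish. Its difference of 0.77 (SE 0.71, limma adjusted p = 0.694) turned on asymptomatic fish 2, since without that fish it was 1.73 and past the threshold.

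To see whether the differences at 3‰ were shared by fish with symptoms at another salinity, the DEGs were read in the 6‰ comparison, which shares no fish with the 3‰ comparison. Of the 575 genes higher at 3‰, 76% were above 0 at 6‰, against 46.4% of all tested genes, and their median difference there was 0.27. Of the 684 genes lower at 3‰, 82.9% were below 0 at 6‰, against 53.4% of all tested genes, and their median there was -0.34. The median over all tested genes at 6‰ was -0.03. At 6‰ 1320 genes were past the DEG threshold (5.4%). Past it in the same direction were 78 of the higher genes (13.6%, against 2.24% of all tested genes) and 129 of the lower genes (18.9%, against 3.16%). In the opposite direction were 14 of the 575 higher genes, where 3.16% of all tested genes were called lower at 6‰. The same held for 11 of the 684 lower genes, where 2.24% of all tested genes were called higher. The error of each gene came from the same model in both comparisons, so a gene of small error is easier to call in both. The part of this in the shares called at 6‰ was not tested.

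**Figure D4:**
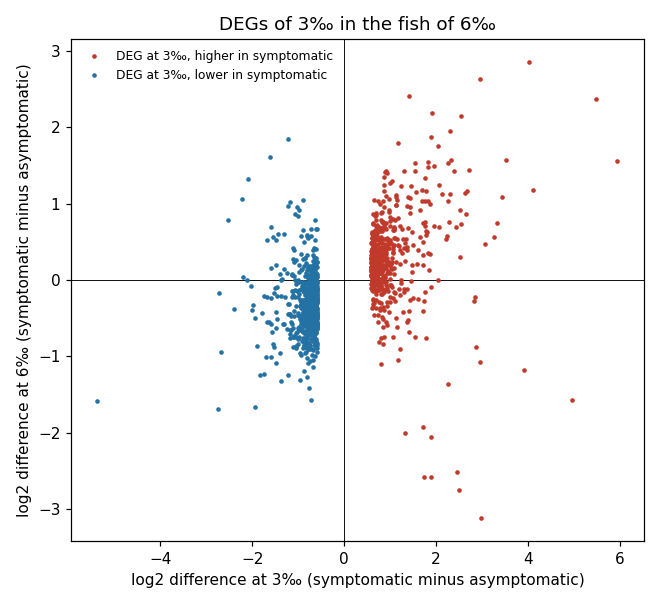
Each point is 1 of the 1259 DEGs of 3‰, with its log2 difference (symptomatic minus asymptomatic) at 3‰ on the x axis and at 6‰ on the y axis. Of the higher genes 76% lie above 0 on the y axis, and of the lower genes 82.9% lie below it.

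Symptomatic libraries were not alike across the salinities as a set. Symptomatic fish 1 of 3‰ and symptomatic fish 3 of 6‰ were the most distant pair among all 15 fish (0.544 on the log2 scale). Symptomatic fish 1 of 6‰ was closer to asymptomatic fish 1 of 3‰ (0.191) than to the other 6‰ symptomatic fish (0.258 and 0.531). Symptomatic fish 1 of 3‰ and symptomatic fish 1 of 6‰ were the closest pair among all 15 fish (0.144 on the log2 scale). The DEGs were called anew in each fit with fish left out. Without both of these fish 76.2% of 863 higher and 88.4% of 1346 lower genes had the same sign at 6‰. Without symptomatic fish 3 of both salinities these shares were 81.1% of 843 higher and 74.8% of 902 lower genes. The median over all tested genes at 6‰ was -0.06 in the former fit and 0 in the latter. The shares of all tested genes above or below 0 are not given for these fits, so they cannot be set directly against the main fit. The difference between the symptom effects was itself tested as an interaction of salinity and symptoms. It was past the fold and unadjusted p thresholds for 727 genes (2.97%), with 942 at an unadjusted p below 0.05 and 0 after adjustment (limma, lowest adjusted p = 0.565).

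Against the control, the higher DEGs had a median difference of 0.62 in symptomatic fish and -0.24 in asymptomatic fish. The lower DEGs had a median of -0.32 in symptomatic fish and 0.44 in asymptomatic fish. The mean of the control fish lay between those of both 3‰ groups for 367 of the 575 higher and 510 of the 684 lower DEGs. Both differences use the same control fish and the genes were chosen on the 3‰ groups, so these values are a description. Genes chosen for a gap between the 3‰ groups leave more room for the control mean inside it. The share over all tested genes is not given.

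The DEGs higher in symptomatic fish had a shorter median locus. The genomic span (end minus start, introns included) had a median of 2534 bases over 471 higher DEGs and 5692 bases over 599 lower DEGs, against 5808 bases over the 20930 tested loci with coordinates. Of loci of up to 1000 bases 4.71% were higher and 3.75% lower, while of loci over 30000 bases 0.475% were higher and 3.32% lower. The whole distribution moved with span. The median difference was -0.01 in loci of up to 1000 bases, -0.14 in loci of 10000 to 30000 bases and -0.22 in longer loci, and at 6‰ it was 0.03, -0.11 and -0.20 in these classes.

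The trend was not the same in every fish. In loci over 30000 bases the median deviation from the mean of all 15 fish was 0.02, -0.08 and -0.19 in symptomatic fish, against 0.14, 0.18 and 0.02 in asymptomatic fish. Symptomatic fish 3 was the lowest and asymptomatic fish 2 the highest, while symptomatic fish 1 and asymptomatic fish 3 were nearly equal. Control fish 1, at -0.20, was as low as symptomatic fish 3. RNA integrity values of these fish are not analysed here, and the part of RNA quality in these differences was not tested.

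**Figure D5:**
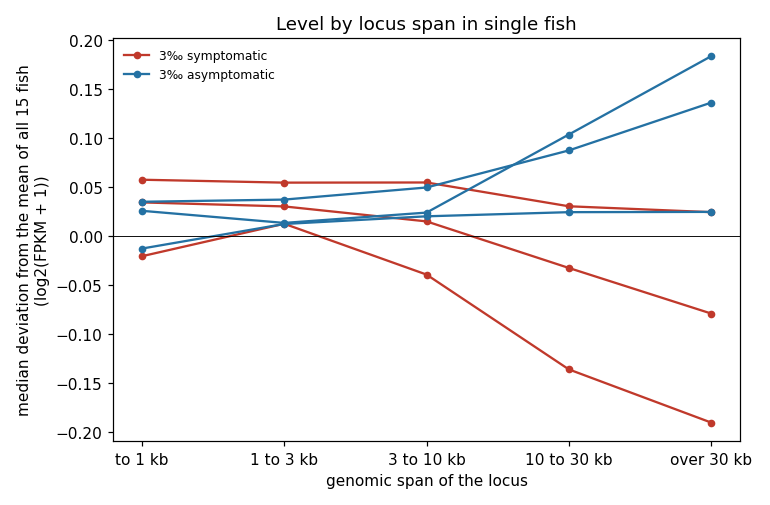
Lines are single fish, with the genomic span of the locus in 5 classes on the x axis and the median deviation from the mean of all 15 fish, in log2(FPKM + 1), on the y axis. Up to 10 kb the fish lie close together, and above 30 kb the 6 fish at 3‰ spread between -0.19 in symptomatic fish 3 and 0.18 in asymptomatic fish 2.

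DEGs of the same direction lay side by side in a larger share than tested loci as a whole, which is given as a description. A neighbouring tested locus on the same scaffold was past the threshold in the same direction for 43 of 426 higher DEGs (10.1%, against 4.17% of all tested loci) and for 65 of 521 lower DEGs (12.5%, against 5.16%). Neighbours can be copies of a gene or pieces of a gene model, and then they share reads. Runs of 3 or more adjacent DEGs numbered 4 on the higher and 3 on the lower side. The choice of the runs described next was made with their values in view.

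The most abundant run held 3 loci on scaffold CI01000113, between 324040 and 333023. Its first locus had 3522, 1736 and 8429 FPKM in symptomatic fish, against 402, 935 and 1196 FPKM in asymptomatic fish. All symptomatic fish were above all asymptomatic fish, with a log2 difference of 2.28 (SE 0.60, limma adjusted p = 0.206). The control fish had 3211, 1628 and 877 FPKM, of which the first was inside the symptomatic range, the last inside the asymptomatic range and the other between both. The other loci of the run had differences of 2.63 and 2.43, and in each the highest value among the 6 fish at 3‰ was that of symptomatic fish 3.

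A run of 4 loci lay on scaffold CI01000319, between 5742834 and 5780221. The third of its loci had 24.7, 40.8 and 27.2 FPKM in symptomatic fish and was listed at 0 in all asymptomatic and all control fish. The second locus had 11.9, 19.8 and 12.0 FPKM in symptomatic fish and was listed at 0 in the same asymptomatic and control fish. The first locus had 26.6, 21.2 and 8.20 FPKM in symptomatic fish, against 1.97, 3.00 and 0 FPKM in asymptomatic fish. At 6‰ this order was not seen. The third of the loci had 24.2, 73.0 and 0 FPKM in 6‰ symptomatic fish, against 32.1, 34.1 and 41.2 FPKM in 6‰ asymptomatic fish. Across the groups it was thus either clearly present or listed at 0.

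Few DEGs were listed at 0 throughout a group. Of the higher DEGs 18 were listed at 0 in all 3 asymptomatic fish, as were 54 of all tested genes. Of the lower DEGs 15 were listed at 0 in all 3 symptomatic fish, as were 65 of all tested genes. A gene at 0 in a whole group passed the filter only through its level in the other 3‰ group. The direction of these genes was thus fixed by the filter, also for the 54 and 65. Only 2 of the 18 and 1 of the 15 were above 5 FPKM in every fish of the other 3‰ group. The control fish were all at 0 too for 11 and 6 of these. A listed 0 can also be a value that could not be estimated, so no fold change is given for these genes.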

How the data were processed

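Gill RNA of grass carp was sequenced with 1 library per fish, 3 fish in each of 5 groups. The authors deposited FPKM values per gene, scaled by transcript length and library total. The labels name a NEBNext kit, while the paper's methods name TruSeq libraries and a Trinity assembly. Neither aligner nor genome build, counting or filters could be read from labels, paper or file headers (not given in the sources used here). Per file, 1 line of annotation text was dropped. FPKM keeps no read count, so the depth behind a value is unknown and no interval is given. The summed FPKM was between 764977 and 852270 in the 6 fish.

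Differences on log2(FPKM + 1) were tested in R 4.3.3 by limma 3.58.1. A single linear model held the 5 groups and left 10 residual degrees of freedom. A gene was kept where its FPKM averaged 0.5 or more in the 6 fish compared. The paper gives a fold of at least 1.5 and p below 0.05 without saying whether p is adjusted; here it was taken unadjusted, beside the Benjamini-Hochberg adjusted p over all tested genes. For a single value an exact permutation test of 3 fish against 3 cannot go below a two-sided p of 0.1. The text gives all 16 named NLR loci, and the 2 higher and 2 lower unnamed DEGs of lowest p whose fish did not overlap. NLRs known only by a newGene number of the infected fish were left out. The members and lists were chosen with earlier results of these data known. The 16 NLR names come from the paper's text. Its study chose 5 of them on these same libraries, as genes raised by salinity. The other 11 are from its qRT-PCR list for infected fish, which are another set of libraries. The fit was tested on simulated data. Alternatives were the adjusted p, a fit of the 6 fish alone, other filters, scalings and pseudocounts, a variance prior by mean expression, a replicate block, leaving out genes listed at 0 beside at least 10 FPKM, and leaving out each fish; leaving out 1 fish of both symptomatic groups was chosen after seeing the data. Nothing says whether fish shared a tank.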

Additional observations from a re-analysis of the deposited data

Results flagged for a closer look

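An interaction of salinity and symptoms had an unadjusted p below 0.05 in limma at 2 of the 16 NLR loci and at 2 of the 4 unnamed loci described, against 942 of all 24465 tested genes, and at none of these loci after adjustment (adjusted p = 0.84 to 1.00). At the NLRC3-like locus CI01000095_03598784_03614858 the difference at 3‰ minus that at 6‰ was 2.11 on the log2 scale, with 1.42 at 3‰ and -0.68 at 6‰. At the NLRC3 locus CI01117969_00000011_00000940 it was 0.98. There 6‰ symptomatic fish had 4.24, 6.57 and 5.95 FPKM, against 13.7, 13.4 and 6.33 FPKM in 6‰ asymptomatic fish, and both the 6‰ and the 3‰ groups overlapped. At the unnamed loci CI01000027_03922380_03931033 and CI01000054_08378811_08396034 it was 1.47 and 0.59. Both were chosen for a low p at 3‰, so a larger effect there is partly fixed by the choice. The locus CI01000095_03598784_03614858 is among those that the paper chose as raised by salinity. The paper's comparisons with the control included 3‰ symptomatic and both groups of 6‰ fish, but not 3‰ asymptomatic fish. The interaction at this locus can thus be partly fixed by that choice as well.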

How the results depend on the processing

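With the adjusted p in the threshold 0 DEGs remained. Genes with an adjusted p below 0.05 numbered 6 when only the 6 fish were fitted, 7 with no filter on low FPKM and 1 with a pseudocount of 0.1 or 0.01. With a pseudocount of 0.1 or 0.01 there were 952 or 944 lower DEGs, against 684 in the main fit. The DEGs at 6‰ numbered 1682 or 1665, against 1320. Of the lower DEGs 206 were called the same way at 6‰ with either pseudocount, against 129. With quantile normalization the difference of the NLRC3 locus on CI01000092 was 0.028. Median-ratio scaling and quantile normalization moved the split of DEGs to 60.8% and 60.7% higher. The cause of these shifts was not tested.

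Same-numbered fish of both groups did not deviate together (correlations of 0.142, -0.16 and -0.02), so the number was not taken to pair them. With the replicate number as a block there were 1238 DEGs, and 1 NLR locus in place of 2 was past the threshold.

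Leaving out each of the 6 fish in turn gave 1077 to 1976 DEGs, 544 to 1171 lower DEGs, 0 to 2 genes with an adjusted p below 0.05, 0 to 3 NLR loci past the threshold and 600 to 1280 genes in the interaction. Of the 482 to 805 higher DEGs in these fits 45 to 145 were called the same way at 6‰. Of the 544 to 1171 lower DEGs 80 to 188 were. The shares of all tested genes called at 6‰ are not given for these fits, so no change in agreement is read from these counts. The most DEGs were found without symptomatic fish 1 and the fewest without symptomatic fish 2. The sign turned at 10 NLR loci not past the threshold. Their ranges were -0.23 to 0.70 on CI01000057, -0.69 to 0.86 on CI01000437, -0.52 to 0.089 at newGene_5350, -0.0019 to 0.44 on CI01000353, -0.085 to 0.46 on CI01000152, -0.25 to 0.14 on CI01000092, -0.15 to 0.41 for NLRC3 on CI01000140, -0.17 to 0.00071 on CI01000358, -0.17 to 0.38 on CI01000433 and -0.10 to 0.40 on CI01117969. The 4 unnamed loci kept their direction and call in each of these fits. They were chosen for a low p and no overlap in these fish, so this is partly fixed by the choice.

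Without fish 1 of both symptomatic groups there were 2209 DEGs (863 higher and 1346 lower) and 2899 DEGs at 6‰. In that fit 4 genes had an adjusted p below 0.05 and 0 NLR loci were past the threshold. Of the 1346 lower DEGs 507 (37.7%) were called the same way at 6‰. More genes were called at 6‰ in that fit than in the main fit, which had 1320. The share of all tested genes called lower at 6‰ is not given for it, so the 37.7% cannot be set against the main fit. No 6‰ fish enters a difference at 3‰, so the differences at 3‰ are the same as without symptomatic fish 1 of 3‰ alone. They were 0.089 at newGene_5350, -0.0019 on CI01000353 and -0.074 for NLRC3 on CI01000140. Without fish 3 of both symptomatic groups 7 genes had an adjusted p below 0.05 and 0 NLR loci were past the threshold. Of the 843 higher DEGs 175 (20.8%) were then called the same way at 6‰. Here too the share of all tested genes called higher at 6‰ is not given, so the 20.8% cannot be set against the main fit. The differences at 3‰, again the same as without symptomatic fish 3 of 3‰ alone, were -0.085 on CI01000152, 0.14 on CI01000092 and -0.17 on CI01000433. FPKM gives no read depth, and with 3 fish a group the spread between fish limits what can be called.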
